A study of Mus musculus with 2 samples.

Results

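Genes of glycolysis and of the hypoxia response were examined in cultured mouse endothelial cells with and without Cre-mediated deletion of Snail1. The set holds 39 genes, chosen by name for their roles in glucose transport, glycolysis, lactate metabolism, oxygen sensing and the response to hypoxia-inducible factor (HIF). A gene was measured through every probe set that the platform's annotation assigns to it alone, which gave 76 probe sets for 36 of the 39 genes, out of 18193 genes measured in this way. Gpi1, Eno1 and Bnip3l had no such probe set and are not analysed here. Of the 36 measured genes, 35 had a mean log2 value above a filter level of 3.97, and Eno2, a neuronal form of enolase, stayed below it, at 3.49 in WT against 3.54 in Snail1 KO.

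Primary endothelial cells, which line blood vessels, came from embryos of strain C57/BL6 at E10.5 (embryonic day), and all of them carried floxed Snail1 alleles, the WT group included. Cells given an adenovirus for β-galactosidase form the WT group, and cells given an adenovirus for Cre form the Snail1 KO group. Each group holds 1 Affymetrix array, which allows no test, and differences are given by their size only. A virus for Cre in cells without floxed alleles is not among the samples, so for every value below the loss of Snail1 and an effect of Cre or of the virus cannot be told apart. Both cultures had 20% serum. The number of embryos pooled for a culture is not given in the labels.

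The comparison asks which transcripts differ once Snail1, a zinc finger repressor, is deleted. Snai1, which encodes Snail1, was at 5.33 in WT against 3.59 in Snail1 KO on the log2 scale, and its 1 probe set checks the labels only if it lies in the deleted part, which the labels do not state. The endothelial markers Cdh5 (11.34 and 11.46) and Pecam1 (10.18 and 10.22) were high on both arrays. Of the 10 endothelial markers 7 were higher and 3 lower in Snail1 KO, Cldn5 being the 1 past 2-fold, and differences ran from -0.40 for Emcn to 1.08 for Cldn5. Of 8 leukocyte markers Ptprc, Tyrobp, Aif1 and Itgam were below the filter level on both arrays, Coro1a was at least 2-fold lower, and linear values summed to 681 in WT and 628 in Snail1 KO. Of 6 measured erythroid markers Hba-a1, Alas2 and Slc4a1 were below it, and 7 fibroblast markers summed to 4030 and 4110. Of 5 fibroblast markers analysed 3 were higher and 2 lower, with differences from -0.998 for Col3a1 to 0.60 for Fbln2. The linear values of 8 smooth muscle and pericyte markers summed to 3430 in WT and 910 in Snail1 KO, with Rgs5 below the filter level on both. Of 6 analysed 4 were lower and 2 higher. At least 2-fold lower were 2, Acta2 (10.94 in WT and 9.09 in Snail1 KO) and Tagln (10.35 and 7.80), the brightest of the list, which carry most of the sum. Cspg4 and Des differed by 0.10 and 0.01. The part of these markers in the differences below was not tested. In bulk RNA, fewer cells of a type and less RNA per cell cannot be told apart.

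Glycolysis splits glucose into pyruvate, and endothelial cells are known for drawing much of their ATP from it even where oxygen is plentiful. Glucose enters through facilitative transporters, is phosphorylated by hexokinase and committed by phosphofructokinase, and the resulting pyruvate is either reduced to lactate and exported or burned in mitochondria. HIF is a dimer of an oxygen-labile alpha subunit and ARNT. In oxygen, prolyl hydroxylases of the EGLN family mark the alpha subunit for capture by the VHL ubiquitin ligase. In hypoxia the dimer binds sites with a short core motif such as ACGTG. It activates genes of glucose uptake, glycolysis, autophagy, pH control and collagen modification, and also the genes of its own hydroxylases.

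To show where that core motif lies in genes that differed in opposite directions, the 250 bases upstream of the start site are printed for 4 members. These were chosen for their direction and for holding the motif, with their values known. The bases run 5′ to 3′ on the gene's strand, with the motif on either strand (ACGTG or its complement CACGT) in capitals. The sequences are from RefSeq, build GRCm38.p6. They are those of Slc2a1 (chr4:119108495-119108744, plus strand) and Ldha (chr7:46845554-46845803, plus strand, the more upstream of its start sites), which were lower on the Snail1 KO array, and Egln3 (chr12:54203875-54204124, minus strand) and Ddit4 (chr10:59951771-59952020, minus strand), which were higher.
Slc2a1: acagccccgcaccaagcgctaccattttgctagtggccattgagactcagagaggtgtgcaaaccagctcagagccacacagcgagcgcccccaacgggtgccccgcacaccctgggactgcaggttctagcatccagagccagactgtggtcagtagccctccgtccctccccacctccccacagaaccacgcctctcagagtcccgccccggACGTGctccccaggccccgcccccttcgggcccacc
Ldha: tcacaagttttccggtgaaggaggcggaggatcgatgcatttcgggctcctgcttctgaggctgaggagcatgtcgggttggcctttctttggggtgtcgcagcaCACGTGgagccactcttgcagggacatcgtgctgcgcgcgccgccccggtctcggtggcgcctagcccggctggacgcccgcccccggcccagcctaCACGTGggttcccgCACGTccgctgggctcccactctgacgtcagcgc
Egln3: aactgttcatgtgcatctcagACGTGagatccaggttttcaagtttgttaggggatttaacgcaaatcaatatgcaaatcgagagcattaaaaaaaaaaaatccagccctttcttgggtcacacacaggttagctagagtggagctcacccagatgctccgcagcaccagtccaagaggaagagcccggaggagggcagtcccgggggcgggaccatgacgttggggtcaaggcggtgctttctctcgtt
Ddit4: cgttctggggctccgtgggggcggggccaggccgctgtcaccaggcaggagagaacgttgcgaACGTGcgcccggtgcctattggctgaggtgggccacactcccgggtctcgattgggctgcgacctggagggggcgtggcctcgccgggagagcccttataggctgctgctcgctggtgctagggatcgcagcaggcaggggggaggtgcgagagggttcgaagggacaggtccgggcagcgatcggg
The motif begins 36 bases before the start site in Slc2a1, 229 bases before it in Egln3 and 187 bases before it in Ddit4. The Ldha window holds 5 matches, because CACGTG reads the same on both strands and counts once for each strand. Promoter entries were found for 35 of the 39 members, in 52 windows, and not for Slc2a3, Epas1, Ndrg1 and Bnip3l. The motif was in 26 of the 52 windows (50%), against 16.6% of all 32851 windows and 21.1% of the 13284 windows of analysed genes. The members were chosen by name, in part for their response to HIF, so a high share follows from that choice. At least 1 window of 22 member genes held the motif. A gene with more windows has more chances of a match, and the share over all genes was not counted. Those 22 members lay on both sides of 0, with 8 higher and 14 lower on the Snail1 KO array and a median log2 difference of -0.15. The 10 analysed members whose windows lacked it were 5 higher and 5 lower, with a median of -0.04. A Snail-type E-box (CACCTG or its complement CAGGTG) was in 6 member windows (11.5%). The share was 17.2% over all windows and 16.2% over the windows of analysed genes. None of the 4 windows printed above held an E-box, but the Ldha window that is not printed held 1, and no HIF motif. A match is a string of letters and not a shown binding site. Only ACGTG and its complement were searched for as the HIF motif, so a window without a match may still hold a HIF site.

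The set lay on both sides of 0. Of the 35 analysed members 15 were higher and 20 lower on the Snail1 KO array, with a median log2 difference of -0.14, against -0.01 over all 12874 analysed genes, of which 50.9% were lower and 48.9% higher; without the probe set types that can match several transcripts the median of the set was 0.0905. At least 2-fold lower was 1 member, Slc2a1, against 1.84% of all analysed genes, and at least 2-fold higher was 1 member, Aldoc, against 0.971%. At 1.5-fold, 4 members were lower and 4 higher, against 6.08% and 5.06% of all analysed genes. At 3-fold, 0 members were lower or higher, against 0.699% and 0.179%. Differences of this size are read beside 2 yardsticks from the same arrays, neither of which replaces replicate cultures: the robust SD of the difference over analysed genes was 0.32, and further probe sets of a gene differed from its brightest one with an SD of 0.40. Among 17 members with at least 2 probe sets above the filter level, 12 agreed in sign across them, and Pfkl, Aldoa, Pdk1, Hif1a and Epas1 did not.

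**Figure D1:**
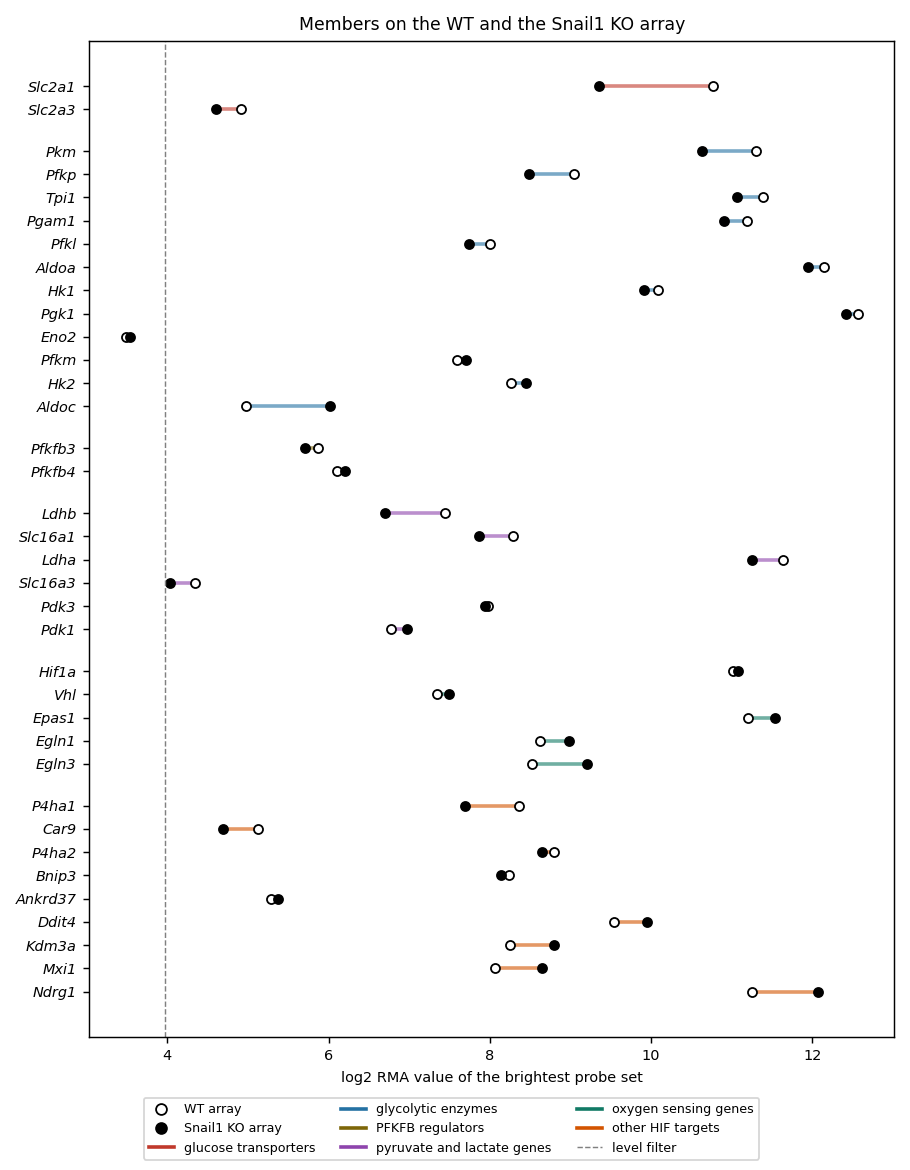
Log2 RMA values of the brightest probe set of the 36 measured members, in WT (open circles) and Snail1 KO (filled circles), grouped by role and joined by a line. Slc2a1 has the longest line to the left, from 10.77 to 9.36, and Aldoc the longest to the right, from 4.97 to 6.01; the dashed line is the filter level of 3.97.

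The 2 glucose transporters of the set were lower, mainly Slc2a1. Slc2a1 encodes GLUT1, the basal glucose transporter of endothelium. Its brightest probe set was at 10.77 in WT against 9.36 in Snail1 KO, 2.66-fold lower, and 0.917% of analysed genes had a more negative difference. The other probe sets were at 10.37 in WT against 9.25 in Snail1 KO (2.19-fold lower), and at 9.57 and 8.40 (2.26-fold lower). All 3 were thus past 2-fold in the same direction. Slc2a3, which encodes the high-affinity transporter GLUT3, was nearer the filter level, at 4.91 in WT, with a log2 difference of -0.31, and its other 3 probe sets were below that level. GLUT1 is also a marker of barrier-forming brain endothelium. Of 9 such barrier genes other than Slc2a1, 6 were analysed. By the brightest probe set all 6 were lower, none by 2-fold, with a median of -0.23, against 50.9% lower over all analysed genes. Slc7a5, an amino acid transporter, was at 8.65 in WT against 7.89 in Snail1 KO, and the drug efflux pump Abcg2 at 10.29 and 9.47. Spock2 (-0.04) and Itm2a (-0.03) were near 0, and the other Itm2a probe set was higher by 0.41. The defining barrier genes Slco1c1 and Slc38a5 were below the filter level on both arrays, as was Lef1. The part of this list in the Slc2a1 difference was not tested.

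Glycolytic enzymes had more lower than higher values, by small amounts. Of 11 analysed members 8 were lower and 3 higher, with a median log2 difference of -0.19, and 10 of the 11 were within 2-fold. Without the probe set types that can match several transcripts, 6 enzymes were left and the median was -0.0103. Lower values were also more common among highly expressed genes in general: of 722 analysed genes with a mean log2 value above 11, 59.8% were lower, with a median of -0.06, and Aldoa, Pgk1, Tpi1 and Pgam1 are among them. The 2-fold background is 1.84% lower and 0.971% higher, as above.

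At the entry of the pathway, the hexokinases, which phosphorylate glucose, had differences of opposite sign. Hk1, the constitutive form, was at 10.09 in WT against 9.91 in Snail1 KO in its brightest probe set, and a further probe set was at 7.42 and 6.82. Hk2, the inducible form, was at 8.26 and 8.45, a log2 difference of 0.19 in its single probe set. Of the phosphofructokinase subunits, which catalyse the committed step, the platelet-type Pfkp was at 9.04 in WT against 8.48 in Snail1 KO, 1.47-fold lower, with another probe set lower by a log2 difference of -0.59. The liver-type Pfkl had log2 differences of -0.25 in the brightest and 0.14 in another of its probe sets, and the muscle-type Pfkm was at 7.59 and 7.71. Pfkfb3 and Pfkfb4 make fructose 2,6-bisphosphate, the activator of phosphofructokinase, and Pfkfb3 is known for driving endothelial glycolysis during sprouting. Pfkfb3 was at 5.87 in WT against 5.70 in Snail1 KO, and Pfkfb4 at 6.10 and 6.20. Both differences were smaller than the robust SD of 0.32.

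In the middle and lower steps, aldolase forms differed in direction. Aldoa, the main aldolase outside liver and brain, was at 12.14 in WT against 11.95 in Snail1 KO, and its 5 probe sets ranged from -0.41 to 0.11. Aldoc, a form typical of brain, was at 4.97 and 6.01, 2.06-fold higher, and its second probe set was at 2.60 and 2.86, under the filter level. Past 2-fold in the higher direction, Aldoc therefore rests on 1 probe set not far above the filter level. Triose phosphate isomerase, Tpi1, was at 11.38 and 11.07, and its 3 probe sets were all lower, the most changed by -0.72. Phosphoglycerate kinase, Pgk1, a much used HIF target, was at 12.56 in WT against 12.42 in Snail1 KO, with the other probe sets at -0.14 and -0.21. Phosphoglycerate mutase, Pgam1, was at 11.19 and 10.91. Pyruvate kinase, Pkm, the last step, was at 11.30 and 10.63, 1.58-fold lower in its single probe set, and 4.62% of analysed genes had a more negative difference. By the brightest probe sets, Pkm and Pfkp had the largest lower differences of the enzyme group, and Pgk1 the smallest lower one. Aldoc had the largest higher difference.

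**Figure D2:**
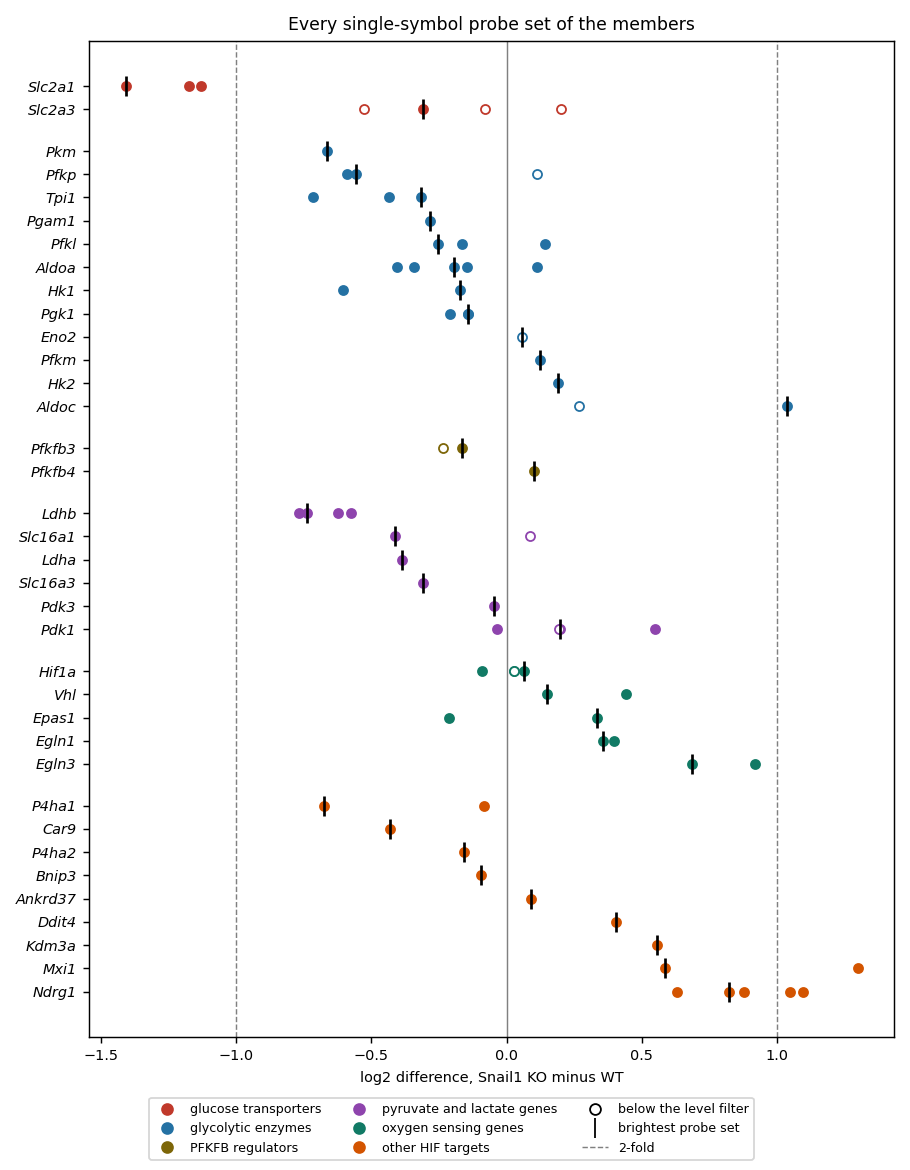
Log2 difference, Snail1 KO minus WT, of all 76 probe sets of the members by gene and role; filled circles are above the filter level, open circles below it, a black tick marks the brightest probe set and dashed lines mark 2-fold. The 3 Slc2a1 probe sets lie left of -1, the 5 Ndrg1 probe sets lie between 0.63 and 1.10, and the 4 Ldhb probe sets lie between -0.77 and -0.57.

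Genes of pyruvate and lactate metabolism had mostly lower values. Of 6 analysed members 5 were lower and 1 higher, with a median log2 difference of -0.35, and none was past 2-fold. Without the probe set types that can match several transcripts, 4 genes were left and the median was -0.18. Ldhb, the lactate dehydrogenase subunit of oxidative tissues, was at 7.45 in WT against 6.71 in Snail1 KO, 1.67-fold lower, and its 4 probe sets ranged from -0.77 to -0.57. Ldha, the subunit of glycolytic tissues and a HIF target, was at 11.64 and 11.25, 1.31-fold lower. The lactate transporter gene Slc16a1, which encodes MCT1, was at 8.28 and 7.87. Slc16a3, which encodes the HIF-regulated exporter MCT4, was at 4.34 and 4.04, close to the filter level on both arrays. The pyruvate dehydrogenase kinases of the set, which hold pyruvate back from mitochondria, differed less by their brightest probe sets. Pdk3 was at 7.98 in WT against 7.94 in Snail1 KO. Pdk1, a HIF target, was at 6.78 and 6.97 in its brightest probe set, and its other analysed probe sets differed by -0.04 and 0.55.

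Oxygen sensing genes were higher in all 5 members by their brightest probe sets, against 48.9% of all analysed genes. The median log2 difference was 0.34, and none was past 2-fold, against 0.971% of analysed genes at least 2-fold higher. The differences of Hif1a and Vhl were below the robust SD of 0.32. Egln3, a HIF prolyl hydroxylase that HIF itself induces, was at 8.52 in WT against 9.21 in Snail1 KO, 1.61-fold higher, and its other probe set was at 6.70 and 7.61. Egln1, the main hydroxylase that sets HIF levels in oxygen, was at 8.63 and 8.99, with the other probe set higher by 0.40. The Egln3 difference was larger than the robust SD of 0.32 in both probe sets. Epas1, which encodes the endothelial subunit HIF-2α, was at 11.20 and 11.53, but its other probe set was at 6.55 and 6.33. Vhl, at 7.35 in WT, was higher by 0.15 in its brightest probe set, with a further probe set higher by 0.44. Hif1a, which encodes HIF-1α, was at 11.01 and 11.08 in its brightest probe set, and its other analysed probe sets differed by -0.09 and 0.03. The HIF subunit transcripts thus differed little or in both directions; HIF activity is mainly set by protein stability, which these arrays do not measure.

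Other HIF targets lay on both sides of 0. Of 9 analysed members 5 were higher and 4 lower, with a median log2 difference of 0.09, which was -0.0025 without Ndrg1 and 0.40 over the 7 genes above the 60th percentile of level. Ndrg1, a stress and differentiation gene induced by hypoxia, was at 11.25 in WT against 12.07 in Snail1 KO in its brightest probe set, 1.77-fold higher, and 98.1% of analysed genes had a lower difference. Its other 4 probe sets went from 11.20 to 11.83, from 10.46 to 11.51, and from 9.56 to 10.44, and the last was 2.14-fold higher from 9.40. All 5 were higher on the Snail1 KO array, and 2 of them, at 2.07-fold and 2.14-fold, were past 2-fold. Mxi1, an antagonist of MYC, was at 8.06 and 8.65, a log2 difference of 0.59, and its other probe set was at 5.67 and 6.97, a log2 difference of 1.30. Kdm3a, a histone demethylase, was at 8.25 in WT against 8.80 in Snail1 KO. Ddit4, which encodes the mTORC1 inhibitor REDD1, was at 9.54 and 9.95. By the brightest probe set these 4 genes, Egln3, Egln1, Epas1 and Aldoc were higher by more than the robust SD of 0.32. The other Epas1 probe set, at -0.21, was not. Lower by more than the robust SD were Slc2a1, Ldhb, P4ha1, Pkm, Pfkp, Car9, Slc16a1 and Ldha. The share of all analysed genes past this size was not counted.

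The lower HIF targets were P4ha1, Car9, P4ha2 and Bnip3. P4ha1, a catalytic subunit of the collagen prolyl hydroxylase, was at 8.37 in WT against 7.69 in Snail1 KO, 1.60-fold lower, while its other probe set was at 6.52 and 6.43, a log2 difference of -0.08. P4ha2, the other catalytic subunit in the set, was at 8.80 and 8.64. Car9, a carbonic anhydrase of the cell surface and a much used hypoxia marker, was at 5.12 and 4.69. Bnip3, a mitophagy receptor, was at 8.23 and 8.14, and Ankrd37 was at 5.28 and 5.37. Bnip3, P4ha2 and Ankrd37 differed by less than the robust SD of 0.32.

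**Figure D3:**
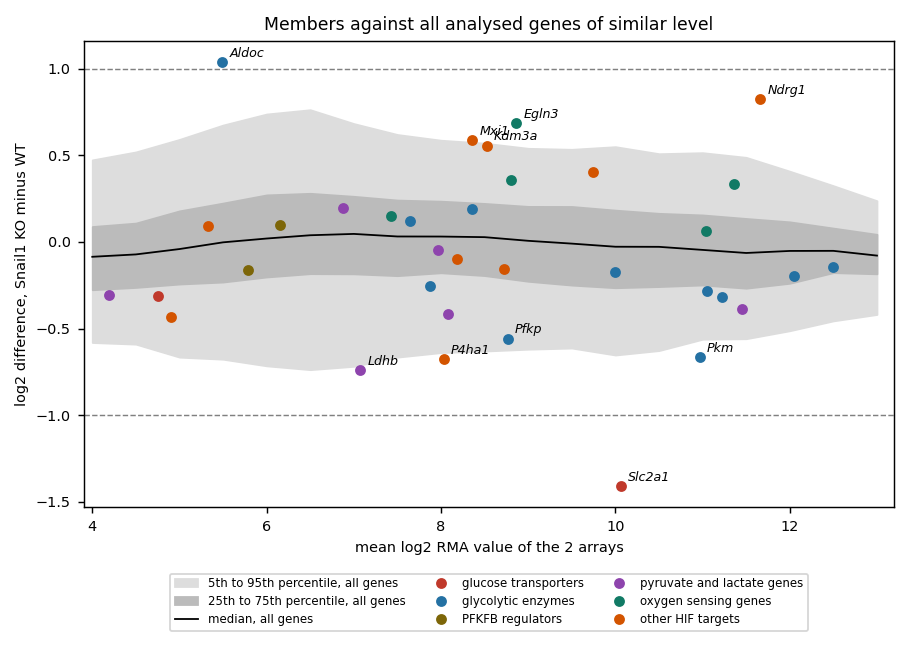
Log2 difference, Snail1 KO minus WT, against the mean log2 RMA value for the 35 analysed members (coloured by role), over bands of all 12874 analysed genes in windows of level. Of the 35, 4 lie below the 5th to 95th percentile band, Slc2a1 (-1.41) and Pkm (-0.66) clearly and Ldhb (-0.74) and P4ha1 (-0.68) at its edge, and 4 lie above it, Ndrg1 (0.82), Egln3 (0.69) and Aldoc (1.04) clearly and Mxi1 (0.59) at its edge.

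Other genes of the same pathways also differed mostly by less than 2-fold. A list of 85 companion genes was divided into 5 roles, and 70 of them were analysed. Of these 30 were higher and 40 lower, with a median of -0.05, and past 2-fold were 1 higher and 2 lower genes, against 0.971% and 1.84% of all analysed genes. Companion genes of sugar transport and glycolysis, 15 analysed, had 8 higher, 7 lower and none past 2-fold. Its analysed sugar transporters did not share the lower values of Slc2a1. By the brightest probe sets, Slc2a8 differed by 0.44, Slc2a10 by 0.41, Slc2a6 by 0.13 and Slc2a4 by -0.04. The pyruvate and lactate companions had 3 higher and 7 lower of 10, and those of gluconeogenesis and glycogen 3 higher and 6 lower of 9, with none past 2-fold in either. The further pyruvate dehydrogenase kinases Pdk2 and Pdk4 differed by 0.41 and -0.46. The 3 control probe sets for Gapdh, which stand outside the gene counts, went from 12.98 to 12.92, from 12.96 to 12.83 and from 12.98 to 12.79.

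Among 11 analysed companions of oxygen sensing, 4 were higher and 7 lower. Egln2, of the same family as Egln1 and Egln3, was among the lower, at 8.96 in WT against 8.70 in Snail1 KO. Cited2, an inhibitor that competes with HIF for the coactivators CBP and p300, was at 10.94 in WT against 9.88 in Snail1 KO, 2.09-fold lower, and its other probe set was at 8.01 and 6.46, 2.94-fold lower. Both probe sets of Cited2 were past 2-fold. Of 25 analysed companion HIF targets 12 were higher and 13 lower. Angptl4, a lipoprotein lipase inhibitor induced by hypoxia and by fatty acids, was at 8.49 and 6.91, a log2 difference of -1.58, while its other probe set was below the filter level at 2.43 and 2.49. Rora, a nuclear receptor, reached 7.04 in Snail1 KO in its brightest probe set, 2.06-fold higher, and its 8 analysed probe sets ranged from -0.21 to 1.05. Vegfa, the main angiogenic HIF target, was at 5.33 in WT against 6.26 in Snail1 KO in 1 probe set and at 5.11 and 5.13 in the other. The companion HIF targets were therefore spread to both sides, as the members were.

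**Figure D4:**
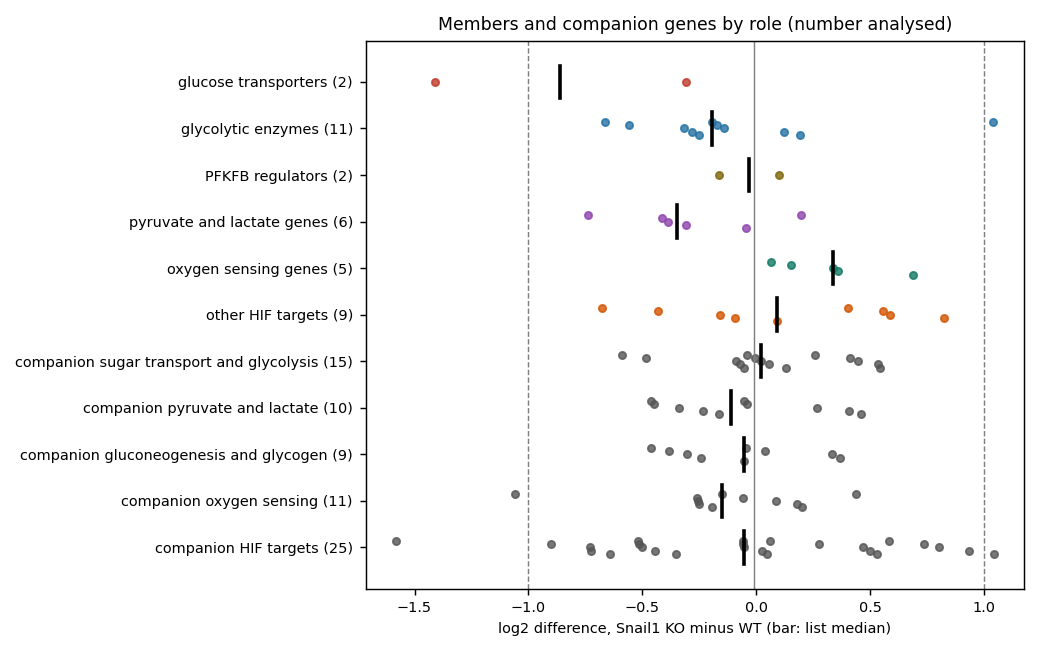
Log2 difference, Snail1 KO minus WT, of each analysed gene by role, members in colour and companion genes in grey, with the list median as a black bar, the median of all analysed genes as a grey line and 2-fold as dashed lines. The medians run from -0.86 for the 2 glucose transporters to 0.34 for the 5 oxygen sensing genes, and the companion lists have medians between -0.15 and 0.02.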

How the data were processed

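The data are 1 WT and 1 Snail1 KO array of biotin-labelled aRNA. The authors deposited 1 log2 value per probe set, made with affy and RMA, per the submitters' processing notes, which name no version. RMA includes quantile normalization, which hides a change in total mRNA. Differences of dim probe sets can also be compressed in RMA values. No measure of signal over background was used, and 1 array per group limits the precision.

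From 45101 probe sets, 64 controls, 932 with several symbols and 9160 without a listed symbol were left out. A gene was represented by its probe set of highest mean and analysed if that mean exceeded the 40th percentile of non-control probe sets (3.97). The log2 difference is Snail1 KO minus WT, and a call means at least 2-fold. Counting by size was tested on simulated data with planted differences past 2-fold and less noise than these arrays show. That checks the counting step only and not the calls in these data. All members were named; of the companion genes, those past 2-fold, Gapdh and Vegfa. The companions Vldlr, Ccng2, Egln2, Pdk2, Pdk4 and the companion Slc2a transporters were chosen after their values were seen. So were the marker genes named beyond Cdh5 and Pecam1. Companion Ero1l was matched through its RefSeq synonym. Members and lists were chosen with earlier results of these data known. Python 3.11.15, pandas 2.3.3 and numpy 2.4.6 were used.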

Additional observations from a re-analysis of the deposited data

How the results depend on the processing

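Leaving out an array was not possible with 1 per group. No paired analysis was possible because the labels carry no replicate numbers and each group holds 1 array. Of 96 alternative values for single members, 93 moved by less than the robust SD of 0.32. Of the 96, 35 only had the median of -0.0083 taken off, which is too small to move a value that far. A member with 1 probe set, such as Hk2 or Pkm, also keeps its value when probe sets are averaged. The count of 93 therefore says little about stability. The 3 that moved more were Pfkl, Aldoc and Mxi1. Pfkl was at 0.14 without probe set types that can match several transcripts (of 1 gene or of several). Aldoc and Mxi1 were at 0.65 and 0.94 as the mean of all probe sets. With that mean, 0 members and 77 genes were 2-fold higher, 1 companion gene was 2-fold lower, and the transporter median was -1.24. With the filter at the 60th percentile, 0 members were 2-fold higher, the transporter median was -1.41 from Slc2a1 alone and that of other HIF targets 0.40. Without the probe set types named above, the median was 0.0905 for the members, -0.0103 for glycolytic enzymes, -0.18 for pyruvate and lactate genes and -1.17 for the transporters, and 2 companion genes were 2-fold higher and 1 lower; fewer genes were tested then, 27 members in place of 35. Without the gene of largest difference, the medians were -0.31 for transporters, 0.10 for PFKFB regulators and -0.0025 for other HIF targets. At 1.5-fold, 4 members, 4 companion genes and 652 genes were higher, and 4, 7 and 783 lower. At 3-fold, 0 members, 0 companion genes and 23 genes were higher, and 0, 0 and 90 lower. Centring on the median of all genes, -0.0083, and no filter changed no direction of a list median and no 2-fold count by over 1.5 times.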

Other observations

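Bnip3l, a mitophagy receptor of the same family as Bnip3, is measured only by probe sets that also match a pseudogene, Bnip3l-ps. These were at 10.29 in WT against 10.38 in Snail1 KO, at 8.99 and 9.60, and at 7.13 and 8.11. All 3 were higher on the Snail1 KO array, by log2 differences of 0.09, 0.61 and 0.98, and the pseudogene and the gene cannot be told apart in them. A probe set shared by Hk1, Rpl17 and other symbols was at 12.90 and 12.53.

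For 2 companion HIF targets, chosen after their values were seen, the brightest probe set had the smallest difference. Vldlr, a lipoprotein receptor, was at 8.18 in WT against 8.71 in Snail1 KO in its brightest probe set, a log2 difference of 0.53. Its other 5 probe sets were higher by 1.24 to 1.68. Ccng2, an atypical cyclin, was at 7.79 and 8.26 in its brightest probe set and at 5.77 and 7.18 in the other, a log2 difference of 1.41. By the brightest probe set neither gene counts as past 2-fold, and the reason for the disagreement was not tested.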
